A study of Mus musculus with 2 samples.

Results

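Among the cells of the ventral prostate library, 53 combined a very low share of mitochondrial transcripts with a high share of the secretory transcripts Sbp and Spink1. They were selected on measured values: at least 500 detected genes, under 0.5% of all unique molecular identifiers (UMIs, each a tag for 1 captured RNA molecule) from the mitochondrial genome (mt- genes), and over 5% from Sbp and Spink1 together. These low-mitochondria secretory cells made up 2.39% of the 2221 ventral cells, and 2.96% of the 1793 ventral secretory cells with 500 genes (exact Clopper-Pearson 95% interval 2.22% to 3.85%, which covers counting error only). The whole series holds 6565 cells. The comparison set was the 1655 ventral cells with 0.5% to 10% mt- UMIs that passed the same gene and Sbp and Spink1 limits.

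The series profiled dissociated prostate of wild-type male C57BL6 mice with droplet 3′ single-cell RNA-seq, in 1 library of the ventral lobes and 1 of the proximal and periurethral region. No treatment was applied, the labels name neither the age nor the number of the animals, and both suspensions were made with papain and then TrypLE, an enzyme mix that releases single cells. Only suspensions with more than 85% live single cells were loaded. With 1 library per region there is no biological replicate, so every comparison below is between sets of cells of 1 library, has no p-value, and carries intervals for counting error only.

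Ventral luminal cells are tall, polarised cells that synthesise seminal proteins on the rough endoplasmic reticulum (ER) and export them through the Golgi apparatus into the gland lumen. Spink1 encodes a secreted inhibitor of trypsin-like proteases, and Sbp encodes spermine-binding protein, an androgen-dependent secretion of this lobe. RNAs differ in where they reside: Malat1 and Neat1 stay in the nucleus, unspliced and intron-retaining transcripts are held there as well, the RNAs of secreted and membrane proteins are largely bound to the ER, RNAs of ribosomal proteins and of translation factors are cytosolic, and mt- RNAs are made and kept inside mitochondria. Some of the lists described here follow those places, and others follow what the encoded proteins do.

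The ventral library held 49356586 UMIs and the proximal library, made with version 3 of the kit in place of version 2, held 97817603 UMIs in 4344 cells. No barcode was shared in sequence between both libraries. The 53 low-mitochondria cells held 573037 UMIs and the comparison set 45607284. Since the selection fixed mt-, Sbp and Spink1 shares, all other genes are given relative to the UMIs that remain without them, called remaining UMIs here: 289719 in the low-mitochondria cells (50.6% of their UMIs) and 23220538 in the comparison set (50.9%). Levels in CPM, counts scaled to a total of 1000000, use the same base.

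The selected cells carried the ventral secretory products at full share. Sbp supplied 23.2% and Spink1 26.1% of their UMIs, against 22.0% and 24.7% in the comparison set. The share of both together ranged from 14.9% to 65.4% over the 53 cells with a median of 49.0%, and the median of the comparison set was 47.7%. Other ventral cells, the 287 with at most 5% of both and at most 10% mt- UMIs, had a median of 1.34%. Mitochondrial UMIs ranged from 0% to 0.466% in the low-mitochondria cells (median 0.0992%), and the comparison median was 2.38%. These shares chose the cells and are given as a description. Of the 13 mt- genes in the files, 12 were between 12.9-fold and 28.2-fold lower relative to all UMIs. The other, mt-Nd6, had no UMI, but at 2.48 CPM of all UMIs in the comparison set it was too scarce for a difference to be detectable at this depth.

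Just inside the mitochondrial limit lay cells at 0.466%, 0.450% and 0.409%, and just outside it cells at 0.501%, 0.508% and 0.510%. The Sbp and Spink1 limit fell in a gap, with low-mitochondria cells at 14.9%, 22.0% and 24.5% above it and the only 3 others, at 3.64%, 2.71% and 0.980%, below it. So 53 of the 56 ventral cells with under 0.5% mt- UMIs and 500 genes were secretory. Among ventral cells with at most 5% Sbp and Spink1, 3 of 298 (1.01%, exact interval 0.208% to 2.91%) were that low in mt- UMIs. That interval overlaps the one for secretory cells.

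The low-mitochondria cells were smaller in RNA content. Their UMIs ranged from 1575 to 33855 with a median of 9612, against a median of 27417 in the comparison set, and 52 of the 53 were below that median. Their detected genes ranged from 575 to 2725 (median 1477), and all 53 were below the comparison median of 3464. When each cell was thinned to 1000 UMIs, the median was 317 genes in the low-mitochondria cells and 350 in the comparison set, with 38 of 53 below the comparison median. Part of the gap in gene number therefore remained at equal depth. Within the 53 cells, genes followed UMIs closely (Spearman's rho 0.94 over cells of 1 library, as a description). Between the Malat1 share and the mt- share of these cells, rho was -0.01. The selection held the mt- share to a narrow range, and most of these cells had very few Malat1 UMIs. That value therefore cannot decide whether both shares are related, and no conclusion is drawn from it.

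**Figure D1:**
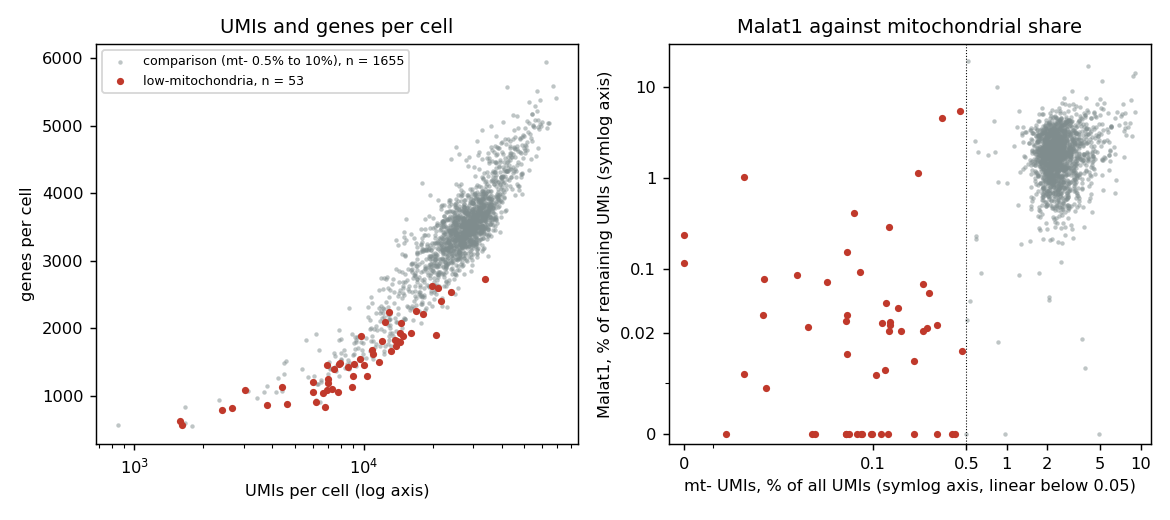
Left: detected genes against UMIs per cell (log axis) for the 53 low-mitochondria cells (red) and the 1655 comparison cells (grey), each point 1 cell. Right: Malat1 as a percent of remaining UMIs against mt- UMIs as a percent of all UMIs (symlog axes, linear below 0.02 and 0.05), with the 0.5% limit dotted. The red points lie along the low end of UMIs and genes, and 44 of the 53 are under 0.1% Malat1.

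Malat1 (chromosome 19, 5795690 to 5802672, mm10), the most abundant nuclear long noncoding RNA here, was nearly missing from most of the low-mitochondria cells. Per cell, Malat1 ranged from 0 to 471 UMIs with a median of 1, against a median of 248 in the comparison set. No Malat1 UMI was found in 17 cells, exactly 1 in another 17, and at most 6 in 46. As a share of remaining UMIs the median was 0.0212% against 1.86%, and 49 of 53 cells lay below the 5th percentile of the comparison set (0.511%). The sets overlapped at their edges: 44 of 53 low-mitochondria cells and 13 of 1655 comparison cells were under 0.1%.

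A few cells set the summed Malat1 level. The 3 highest held 471, 365 and 105 UMIs, which is 85.2% of all 1105. Summed over all 53 cells, Malat1 was at 3814 CPM against 19810 CPM, 5.19-fold lower (95% counting interval 4.90 to 5.51). Without these 3 cells, a choice made after their values were seen, it was at 624 CPM (532 to 728), which is 31.7-fold lower (27.2 to 37.2). After thinning to 1000 UMIs, 15 of 53 low-mitochondria cells (28.3%, exact interval 16.8% to 42.3%) had a Malat1 UMI, against 98.7% of the comparison cells and 98.3% of other ventral cells. Without thinning the shares were 67.9% and 99.8%.

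Other nuclear RNAs stood low with Malat1. Over the genes with at least 50 UMIs in both sets together, 1753 of 10971 (16%) were more than 2-fold lower in the low-mitochondria cells and 13 (0.118%) more than 2-fold higher, on a scale of log2(CPM + 10). The median gene stood at -0.32 on that log2 scale. Genes passed the minimum of 50 UMIs mainly through the comparison set, which held 23220538 remaining UMIs against 289719. The counts of lower and higher genes are therefore not on an equal footing, and 573 of the 1753 had no UMI in the low-mitochondria cells. The share more than 2-fold lower depended on the settings: it was 7.71% with genes tested over all UMIs, 10.5% with an mt- limit of 1%, 26.6% in a narrower window of depth, and 40.6% with a pseudocount of 1 CPM. Counts for the lists use the same scale as the 16%. Of the 10 nuclear-retained long noncoding RNAs tested (of 14 listed), 6 were more than 2-fold lower and all 10 had negative values, with a median of -1.25. Airn, the antisense transcript that silences the Igf2r cluster, was at 34.5 CPM (16.6 to 63.5) against 201 CPM. Neat1, the scaffold of nuclear paraspeckles, was at 31.1 CPM (14.2 to 59.0) against 193 CPM. Kcnq1ot1, an imprinting RNA, had 4 UMIs, all in 1 cell. The summed list took 0.391% of remaining UMIs against 2.04%, 5.20-fold lower (4.91 to 5.52), and Malat1 made up most of it.

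Transcripts of splicing-related genes that are known to detain introns were low as well. Together these 15 genes took 0.152% of remaining UMIs against 0.333%, 2.20-fold lower (2.001 to 2.42), and 8 of the 15 were more than 2-fold lower, where 16% of all genes were (median log2 -1.22 against -0.32, all 15 negative). Son, which encodes a large protein of nuclear speckles, was at 89.7 CPM (58.6 to 131) against 402 CPM. Rbm39, a splicing factor gene, was at 217 CPM against 616 CPM. Ddx5, an RNA helicase gene, differed less, at 349 CPM against 619 CPM, and Rsrp1 was at 359 CPM against 515 CPM. By cell, 36 of 53 were below the 5th percentile of the comparison set for this list.

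The difference followed the length of the gene on the chromosome, introns included. In GENCODE M21, 10969 of the 10971 tested genes have a span. The median log2 ratio was 0.03 for 1356 genes spanning under 5 kb, -0.12 for 3580 genes of 5 to 20 kb, -0.34 for 3044 genes of 20 to 50 kb, -0.60 for 1608 genes of 50 to 100 kb and -0.86 for 1381 genes over 100 kb. The share more than 2-fold lower rose along the same classes from 4.13% to 42.5%. Genes over 100 kb together took 1.87% of remaining UMIs in the low-mitochondria cells and 5.27% in the comparison set. Among genes at 20 to 200 CPM in the comparison set the order was the same, from a median of 0.10 under 5 kb to -1.33 over 100 kb. In a narrower window of depth, between the 10th and 90th percentile of UMIs of the low-mitochondria cells, 41 of them (median 9612 UMIs) were set against 284 comparison cells (median 14647 UMIs). There the summed log2 ratio was -1.65 for genes over 100 kb, -3.33 for nuclear-retained lncRNAs and 0.29 for ribosomal protein genes, and 26.6% of genes were more than 2-fold lower. The grouping by span was added after the data were seen. Whether reads in introns were counted is not given in the sources used here, so spliced and unspliced RNA of these genes cannot be told apart.

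**Figure D2:**
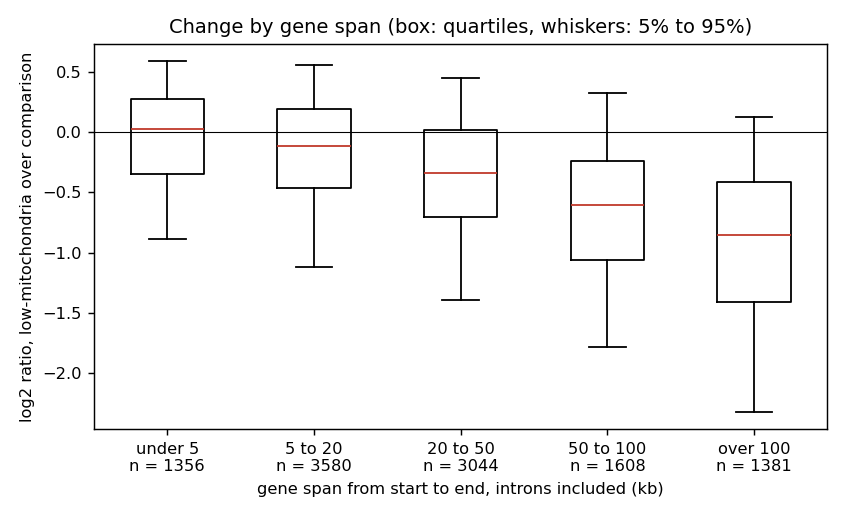
Log2 ratio of low-mitochondria over comparison cells (CPM + 10, remaining UMIs) for genes grouped by span in kb. Boxes give quartiles with the median in red, whiskers the 5th to 95th percentile over genes, and n the genes in each class. The median moves from 0.03 under 5 kb to -0.86 over 100 kb.

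The 10 genes with the lowest ratios included many long ones. Atxn1, which encodes ataxin 1 and spans 415 kb, had 1 UMI in the low-mitochondria cells against 151 CPM in the comparison set. Esrrg, an orphan nuclear receptor gene of 606 kb, had 2 UMIs against 147 CPM, and Arfgef3, of 162 kb, had 1 UMI against 109 CPM. Tacc2, of 187 kb, was at 13.8 CPM against 261 CPM, and Ints6, an Integrator subunit gene of 84.8 kb, was at 13.8 CPM against 246 CPM. Gk5 had no UMI against 100.5 CPM, at least 9.70-fold lower with 3 counts over the set as the floor. Others were shorter. Chka, the choline kinase gene of 42.6 kb, was 11.4-fold lower (7.12 to 19.6), and Egr1, of 5.16 kb, was 10.9-fold lower (6.10 to 21.9). Mtmr4 had 3 UMIs against 164 CPM, and 5% of the comparison cells held 86.5% of its UMIs. The sizes of these ratios depended on the settings, which the counting intervals do not cover. In the setting with the mildest value, the log2 ratio went from -3.31 to -1.22 for Chka, from -3.51 to -1.88 for Tacc2 and from -3.43 to -1.91 for Ints6. All 10 genes stayed negative in every setting.

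Immediate-early RNAs, which are made fast after a stimulus and decay quickly, and heat-shock RNAs were lower as 1 list. The 20 genes took 0.722% of remaining UMIs against 1.48%, 2.05-fold lower (1.96 to 2.14), and 13 of the 20 were more than 2-fold lower, where 16% of all genes were (median log2 -1.30 against -0.32, all 20 negative). Jun, a subunit of the AP-1 transcription factor, was at 366 CPM (300 to 443) against 1208 CPM. Hsp90aa1, the inducible cytosolic HSP90 gene, was at 677 CPM against 1742 CPM, and Hspb1, a small heat-shock protein gene, at 1118 CPM against 1641 CPM. Hspa8, the constitutive HSC70 gene, was at 1484 CPM (1347 to 1631) against 1577 CPM, a difference within its counting interval.

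Ribosomal protein RNAs filled more of the remaining pool. They took 34.6% of remaining UMIs in the low-mitochondria cells and 28.0% in the comparison set, 1.24-fold higher (1.23 to 1.25). Of the 80 genes tested, 79 had positive values and none passed 2-fold, with a median log2 ratio of 0.35. By cell, 48 of 53 were above the comparison median and 23 above its 95th percentile. The values were uneven among the most abundant members. Rpl41 was at 12664 CPM against 11257 CPM and Rplp1 at 9009 CPM against 7137 CPM, while Rps29 was at 9723 CPM (9367 to 10089) against 9592 CPM. Rps28 was the 1 gene with a negative value, at 7000 CPM against 7297 CPM. Rps26, the highest of the 80 and named after its value was seen, was at 3465 CPM (3254 to 3687) against 1843 CPM, 1.88-fold higher.

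Translation factor RNAs, which like those of ribosomal proteins often carry a 5′ terminal oligopyrimidine tract, were higher by more. The 17 genes took 2.91% of remaining UMIs against 2.04%, 1.43-fold higher (1.40 to 1.46), with 16 of 17 positive and a median log2 ratio of 0.39. By cell, 49 of 53 were above the comparison median and 40 above its 95th percentile. Eef1a1, which delivers tRNAs to the ribosome, was at 10707 CPM (10333 to 11090) against 6753 CPM. Tpt1 was at 5008 CPM against 3112 CPM, and Eif1, a factor in start codon choice, at 1533 CPM against 1339 CPM. Eef2 differed little, at 1550 CPM (1410 to 1700) against 1532 CPM.

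Leaving out ribosomal protein genes, the 10 highest ratios among genes with at least 100 UMIs in the low-mitochondria cells were all under 2-fold. That limit set this outcome, since the 13 genes more than 2-fold higher had at most 86 UMIs each in these cells. Sumo2, a ubiquitin-like modifier gene, was at 404 CPM against 215 CPM, 1.88-fold higher (1.55 to 2.26). Ufc1, the UFM1-conjugating enzyme gene, was 1.83-fold higher (1.52 to 2.18) and Cnbp, which encodes a nucleic acid binding protein, 1.78-fold higher (1.47 to 2.14). Pfn1, the profilin gene, Dap, Eif3e, Ybx1 and H3f3a lay between 1.60-fold and 1.70-fold, and Tpt1 and Eef1a1 completed the group. Across the 390 genes with that many UMIs, ribosomal protein genes included, log2 ratios ran from -2.37 for Malat1 to 0.91 for Rps26.

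**Figure D3:**
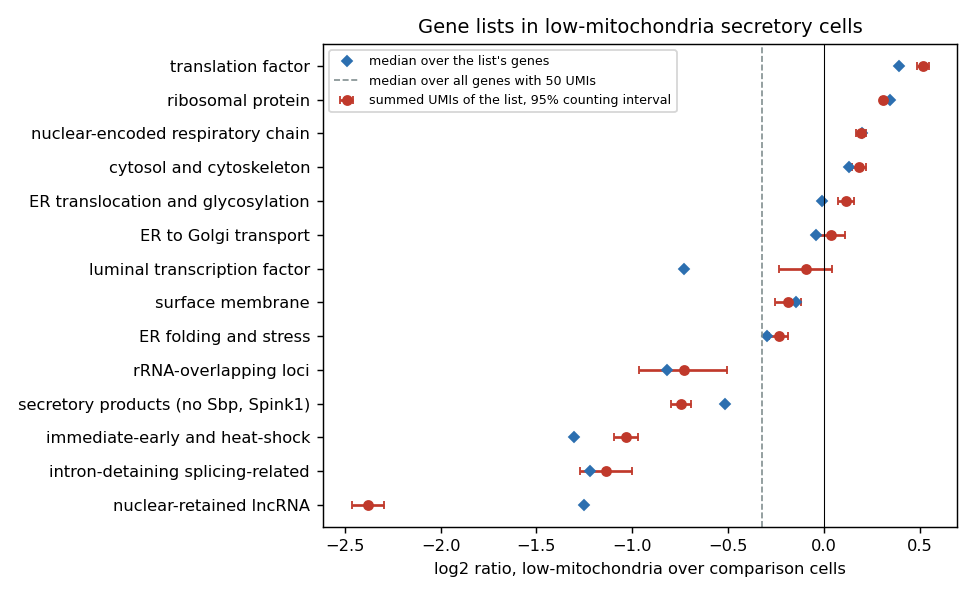
Log2 ratio of low-mitochondria over comparison cells for each gene list. Red points give the ratio of summed UMIs with the 95% counting interval, blue diamonds the median over the list's genes, and the dashed line the median over all genes (-0.32). Translation factors and ribosomal proteins stand highest. Nuclear-retained lncRNAs are lowest in the sums, at -2.38, and immediate-early and heat-shock genes lowest by the median, at -1.30.

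RNAs for the ER entry machinery took a slightly higher share in the sums, while the genes were evenly split. The 30 translocation and glycosylation genes took 1.64% of remaining UMIs against 1.52%, 1.08-fold higher (1.05 to 1.11), with 15 genes above and 15 below 0 and a median log2 ratio of -0.01. In the narrower window of depth the summed log2 ratio was 0.26, against 0.11 over all cells of both sets. Sec61g and Sec61b, small subunits of the translocation channel, were at 2250 CPM against 2072 CPM and at 2023 CPM against 1644 CPM. Ssr4, of the translocon-associated complex, was at 2268 CPM against 2061 CPM, and Sec11c, of the signal peptidase, at 1760 CPM against 1512 CPM. The 2 genes more than 2-fold lower were Sec61a1, the channel itself, at 58.7 CPM against 226 CPM, and Stt3b, an oligosaccharyltransferase gene, at 27.6 CPM against 87.2 CPM, a smaller share of the 30 than the 16% of all genes.

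ER to Golgi transport genes had a summed ratio whose interval includes 1 (1.03-fold, 0.975 to 1.08). Tmed10, a cargo receptor gene of transport vesicles, was at 649 CPM against 538 CPM, Cope at 570 CPM against 500.1 CPM, Tmed9 at 449 CPM against 444 CPM and Tmed3 at 614 CPM against 699.5 CPM. The 3 of 23 genes more than 2-fold lower were Golgb1 (65.6 CPM against 228 CPM), Copa (38.0 CPM against 147 CPM) and Sec24d (1 UMI against 46.5 CPM), a count near the 16% of all genes. The first encodes giantin, a Golgi membrane protein, and the others subunits of vesicle coats.

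ER folding and stress genes were slightly lower, with 1.05% of remaining UMIs against 1.24%, 1.18-fold lower (1.14 to 1.22), and 41 of 53 cells were below the comparison median. Their median log2 ratio of -0.30 is close to that of all genes. Hspa5, the main ER chaperone BiP, was at 1294 CPM (1167 to 1432) against 2012 CPM, and 37.7% of low-mitochondria cells against 59.0% of comparison cells had a UMI of it after thinning to 1000 UMIs (83.0% and 99.9% without thinning). In other ventral cells the share was 54.9%. Calr was at 1236 CPM against 1150 CPM and Ppib, an ER prolyl isomerase gene, at 1312 CPM against 1004 CPM. P4hb, a protein disulfide isomerase gene, was at 418 CPM against 1115 CPM, and it was 1 of the 3 genes of 25 more than 2-fold lower, with Ddit3 (27.6 CPM against 87.4 CPM) and Ero1l (no UMI against 15.3 CPM, at most 3 counts or 10.4 CPM), a count no higher than the 16% of all genes gives.

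Genes were also grouped by the encoded protein. A stretch of 8 residues with a mean Kyte-Doolittle hydrophobicity of at least 2.5 within the first 30 residues, a rough mark of a signal peptide or membrane anchor, was found for 1172 tested genes. Their median log2 ratio was -0.29, against -0.34 for 8989 other coding genes without ribosomal protein genes. Among genes spanning under 20 kb the medians were -0.11 and -0.07. The summed ratio of the hydrophobic group was 1.04-fold (1.03 to 1.05), against 0.901-fold (0.896 to 0.905) for the other coding genes. Under 20 kb the summed ratios were 1.13-fold (1.12 to 1.14) and 1.04-fold (1.04 to 1.05). The order of the sums depended on the limit. With 2.0 in place of 2.5 the hydrophobic group was at 0.965-fold (0.958 to 0.973) against 0.916-fold (0.911 to 0.921). Under 20 kb it was then at 1.06-fold (1.05 to 1.07) against 1.07-fold (1.06 to 1.07), with intervals that overlap, and among genes over 200 CPM at 1.03-fold against 1.07-fold. No difference between the groups is read from these values.

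Secretory products other than Sbp and Spink1, of which 10 of the 18 listed had at least 50 UMIs, summed to 1.13% of remaining UMIs against 1.90%, but the typical cell differed little. The median share per cell was 0.773% in low-mitochondria cells and 0.823% in the comparison set, with 27 of 53 cells below that median. Defb50, a beta-defensin gene, was at 5436 CPM (5171 to 5712) against 11754 CPM in the sums, but its median over cells was 1841 CPM against 2440 CPM, and after thinning 66.0% and 65.8% of cells had a UMI of it. The top 5% of comparison cells held 67.2% of its UMIs. Msmb, a beta-microseminoprotein gene, was at 86.3 CPM (55.8 to 127) against 1861 CPM, the lowest ratio under the rule for named genes, which leaves out mt- genes. The top 5% of comparison cells held 93.9% of its UMIs, and after thinning 9.43% of both sets had a UMI, so no order is read from that share. The highest low-mitochondria cell reached 762 CPM of Msmb and the highest comparison cell 80658 CPM. The log2 ratio of Msmb was -4.28 in the main setting and -1.16 in the setting with the mildest value.

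Other secretory members were close or scarce. Agr2, an ER-resident disulfide isomerase gene, was at 2723 CPM (2537 to 2920) against 2241 CPM. Spink5, a protease inhibitor gene, was at 1788 CPM against 1672 CPM in the sums, but 3 cells held 55.4% of its UMIs in the low-mitochondria set. Its median over cells was 0 CPM against 63.1 CPM, it was found in 22 of 53 cells (41.5%) against 58.5% of the comparison cells, and its log2 ratio went from 0.096 to -0.40 in the narrower window of depth, so no direction is read from it. Azgp1, a secreted lipid-binding glycoprotein gene, was at 1201 CPM (1078 to 1334) against 1221 CPM, and Clu, the clusterin gene, at 89.7 CPM against 139.7 CPM. Pbsn, the probasin gene, had 6 UMIs against 128 CPM and was the third of the 10 genes more than 2-fold lower, with Msmb and Defb50, where 16% of all genes were. The top 5% of comparison cells held 83.0% of the Pbsn UMIs, and its median over cells was 0 CPM in both sets. Wfdc2, Spink8 and Mmp7 had no UMI in the low-mitochondria cells and under 10 CPM in the comparison set.

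Surface protein genes varied. Tspan1, a tetraspanin gene, was at 2261 CPM against 1891 CPM, Cd63 at 683 CPM against 529 CPM and Cldn3, a tight junction gene, at 587 CPM (502 to 682) against 614 CPM. The 3 of 17 genes more than 2-fold lower were Slc12a2, the basolateral sodium-potassium-chloride cotransporter gene (238 CPM against 1203 CPM), Prlr, the prolactin receptor gene (34.5 CPM against 187 CPM), and Cdh1, the E-cadherin gene (17.3 CPM against 146 CPM), again near the 16% of all genes. The summed list was 0.877-fold (0.836 to 0.919).

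Luminal transcription factors varied too. Hoxb13, a posterior homeobox gene of 3.13 kb, was at 1146 CPM (1026 to 1276) against 926 CPM and was found in 51 of 53 cells. Foxa1, a forkhead gene, was at 62.1 CPM against 135 CPM, and Spdef at 75.9 CPM (47.6 to 115) against 86.8 CPM. Of the 11 genes tested, 3 had positive and 8 negative values, with a median log2 ratio of -0.73 against -0.32 over all genes. More than 2-fold lower were 4 of the 11, where 16% of all 10971 genes were, among them Foxa1 and Klf5 (17.3 CPM against 57.1 CPM).

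Nuclear genes for the respiratory chain did not share the shortage of mitochondrial RNAs. The 75 genes took 3.71% of remaining UMIs against 3.25%, 1.14-fold higher (1.12 to 1.16), with 67 positive and a median log2 ratio of 0.20, and none passed 2-fold. Cox7c was at 1377 CPM against 1194 CPM and Cox8a at 1163 CPM against 1031 CPM, both genes of small subunits of cytochrome c oxidase. Atp5e, of the ATP synthase, was at 1180 CPM against 937 CPM, and Ndufa7, of complex I, at 1015 CPM against 929.8 CPM. Cytosolic and cytoskeletal genes took 2.24% against 1.98%, 1.14-fold higher (1.11 to 1.16), with 15 of 24 positive and 9 negative and a median log2 ratio of 0.13. Ppia, the cyclophilin A gene, was at 2630 CPM against 1725 CPM and Ubb, a polyubiquitin gene, at 4846 CPM against 3985 CPM. Actg1 was slightly lower, at 2081 CPM against 2358 CPM.

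Markers of other cell types were at or near 0. All 5 basal, 7 T or NK cell, 4 B or plasma cell and 5 endothelial markers had no UMI in the 53 cells. Each allows up to 10.4 CPM of remaining UMIs. Of 6 fibroblast markers, Dcn had 20 UMIs and 5 had none, and at 69.0 CPM (42.2 to 107) Dcn was not above the 98.2 CPM of the comparison set. Macrophage markers had 2 UMIs, smooth muscle markers 1, proximal luminal markers 5 and erythroid markers 7. The 6 seminal vesicle and 3 anterior lobe markers had none, the 3 cycling genes 4, and Msmb and Pbsn, which mark the lateral and dorsal lobes, 31 together. The 3 loci that overlap ribosomal RNA repeats took 0.0559% of remaining UMIs against 0.0928%. No low-mitochondria cell had at least 2 UMIs in each of 2 markers of any of these classes. Distal luminal markers, which include Defb50, Krt8 and Krt18, were present in 50 of 53 cells by that measure. Krt18 was at 1457 CPM against 1344 CPM and Krt8 at 677 CPM against 713 CPM.

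Cells just above the mitochondrial limit were mixed in gene content. The median Malat1 share was 0.0159% in the 27 cells with under 0.1% mt- UMIs, 0.0227% in 12 cells at 0.1% to 0.2% and 0.0217% in 14 cells at 0.2% to 0.5%. It was 0.572% in the 16 comparison cells at 0.5% to 1%, 6 of which were under 0.1% Malat1, and 1.77% or more in each class above. Those 16 cells also had few UMIs (median 8428) and a ribosomal protein share of 30.8%, between the 32.1% of the class below and the 27.7% of the class above. Their Malat1 shares ran from 0% to 19.6%, and their summed nuclear-retained lncRNAs (2.11%) lay above both neighbouring classes (1.08% and 1.93%), while ER translocation genes (1.48%) lay below both (1.73% and 1.59%). Genes over 100 kb went from 1.61% of remaining UMIs under 0.1% mt- to 4.09% at 0.5% to 1% and 6.44% at 5% to 10%. The class from 0.5% to 1% holds under 20 cells.

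**Figure D4:**
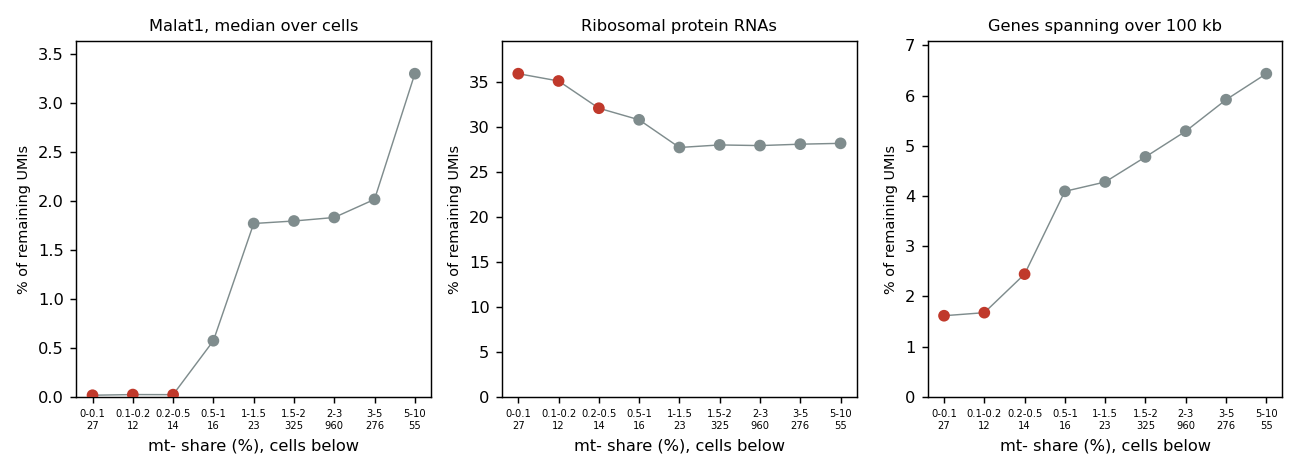
Median Malat1 share over cells, ribosomal protein share and share of genes spanning over 100 kb, each as a percent of remaining UMIs, by class of mt- share (class limits in percent, with the number of cells under each). Red points are the classes under 0.5%. Malat1 is at or under 0.0227% in the red classes, and ribosomal protein RNAs fall from 35.9% to 27.7% before levelling.

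The 53 cells were not uniform. The 27 cells with under 0.1% mt- UMIs had 35.9% ribosomal protein RNAs and 0.845% ER folding RNAs, against 33.4% and 1.26% in the other 26. Among all 53, the 4 cells with at least 0.5% Malat1 had a median of 2420 genes and 3.71% of remaining UMIs from genes over 100 kb, against 1462 genes and 1.61% in the 44 cells with under 0.1%. Their mt- shares ran from 0.0201% to 0.450%, and the cell at the lower end held 105 Malat1 UMIs. Conversely, 7 comparison cells with 1.23% to 4.89% mt- UMIs had under 0.1% Malat1. They had a median of 13100 UMIs, 31.4% ribosomal protein RNAs and 2.49% from genes over 100 kb.

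The same rule found 9 cells in the proximal library, 4.41% of its 204 secretory cells with 500 genes (2.04% to 8.21%). Their median of 12237 UMIs compared with 73020 in the 158 proximal cells of 0.5% to 10% mt- UMIs. Malat1 shares ran from 0.0277% to 9.37% with a median of 0.110%, against 1.97% in the proximal comparison cells, and 5 of the 9 were below the 5th percentile of those cells. In the sums the direction was opposite to the ventral library: nuclear-retained lncRNAs took 4.12% against 2.22%, and 2 of the 9 cells held 1908 and 558 of their 2626 UMIs as Malat1. These 2 cells had 31705 and 30200 of the 126444 UMIs of the 9 cells, so they weigh heavily on every summed ratio given here. Sums without these 2 cells were not computed. Other lists also went the other way: translation factors were 0.926-fold (0.874 to 0.980), cytosolic and cytoskeletal genes 0.723-fold (0.684 to 0.764) and the ribosomal RNA loci 2.46-fold higher (2.32 to 2.60). ER to Golgi transport genes were at 0.880-fold (0.778 to 0.992). Respiratory chain genes (0.991-fold, 0.943 to 1.04) and ER translocation genes (0.994-fold, 0.925 to 1.07), both higher in the ventral sums, had intervals that include 1. Genes that detain introns were at 0.868-fold (0.772 to 0.973), against 0.455-fold in the ventral library. Ribosomal protein RNAs took 20.4% against 19.4% (1.05-fold, 1.03 to 1.07), and immediate-early and heat-shock RNAs were 1.91-fold lower (1.78 to 2.06). Kit version and region cannot be told apart between the libraries. Whether the 53 cells were whole cells or parts of cells was not measured, and the part of free RNA in these differences was not tested.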

How the data were processed

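Single-cell 3′ libraries were made by the submitters with the Chromium system and processed with Cell Ranger 7.0.0 on mm10, per the submitters' processing notes. Which annotation was used, and whether reads in introns were counted, is not given in the sources used here. The deposited matrices hold raw UMI counts per gene and cell, with gene and barcode lists made by the authors. Doublets were not called. From the counts, UMIs were summed over cells of each set in Python 3.11.15 (numpy 2.4.6, scipy 1.17.1, pandas 2.3.3) and expressed as CPM of remaining UMIs. Log2 ratios used a pseudocount of 10 CPM for genes with at least 50 UMIs. Intervals are exact Poisson, conditional or Clopper-Pearson at 95%. Cells are not replicates, so intervals cover counting error only. Calculations were tested on simulated data.

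The members, lists and tests were chosen with earlier results of these data known. Genes named in the text are the 4 members of each list with the most UMIs, all secretory products with 50 UMIs, and the 10 highest and 10 lowest ratios among genes with 100 UMIs in the higher set and at most 25% of them in 1 cell, leaving out mt-, ribosomal protein, immunoglobulin, Gm-number and Rik genes. List members more than 2-fold lower were also named where there were few, after their values were seen. Some list members are not reported here. Gene spans and coding sequences came from GENCODE M21, which has the same build. A planned grouping by RefSeq proteins used these coding sequences instead, found for 10241 genes. Of the secretory cells, 85 with over 10% mt- UMIs were not used in the comparison. Alternatives are in the closing section.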

Additional observations from a re-analysis of the deposited data

Results flagged for a closer look

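Some ventral secretory cells lay outside both sets and were not used in any comparison above. Low in mt- UMIs but with under 500 genes were 6 cells, of 130 ventral cells that small. They had a median of 928 UMIs, 0 to 17 Malat1 UMIs with a median of 0, and 42.1% of remaining UMIs from ribosomal protein genes. At the other end, 85 secretory cells had over 10% mt- UMIs (median 20.1%). They had a median of 3459 UMIs, fewer than the 9612 of the low-mitochondria cells, but a median Malat1 share of 8.16%, with 14.9% of remaining UMIs from genes over 100 kb and 15.9% from ribosomal protein genes. The 6 cells and the 85 cells both had few UMIs, with low Malat1 in the first set and high Malat1 in the second. The reason was not tested.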

How the results depend on the processing

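No paired analysis was possible because each region has 1 library and the labels give no replicate numbers. Of 1304 recomputed values for 105 results, 1125 kept their direction and stayed within the counting interval or within 1.5 times the count, 160 moved and 19 changed sign; for the moves below the cause was not tested. The number of low-mitochondria cells ran from 44 to 69, by mt- limit. Of the 16 summed ratios, 15 kept their direction under every setting; the hydrophobic group went to -0.051 (log2) at a limit of 2.0. Of the moved summed ratios, 17 were of the other 9 lists, with no change of direction, and the rest were as follows. With an mt- limit of 0.25%, secretory products were at -0.62, nuclear lncRNAs at -4.13, ribosomal protein genes at 0.33 and genes over 100 kb at -1.66. With a limit of 1%, nuclear lncRNAs were at -1.36, ribosomal protein genes at 0.27, genes over 100 kb at -1.14 and ER folding genes at -0.19. With Sbp and Spink1 over 2%, secretory products were at -0.47, and over 20% at -0.24, with ribosomal protein genes at 0.30. With 1000 genes, ER folding genes were at -0.18, nuclear lncRNAs at -2.29 and ribosomal protein genes at 0.28. Over all UMIs, ribosomal protein genes were at 0.30. In the UMI window, secretory products were at -0.59, ER translocation genes at 0.26, nuclear lncRNAs at -3.33, ribosomal protein genes at 0.29 and genes over 100 kb at -1.65. As means over cells, secretory products were at -0.48, ER folding genes at -0.31, nuclear lncRNAs at -2.95 and genes over 100 kb at -1.54. Without the 5% of cells with most UMIs, secretory products were at -0.82, ER folding genes at -0.33, nuclear lncRNAs at -2.25 and ribosomal protein genes at 0.34. Without the 3 low-mitochondria cells with over 100 Malat1 UMIs, chosen after seeing the data, secretory products were at -0.69, nuclear lncRNAs at -4.90, ribosomal protein genes at 0.33 and genes over 100 kb at -1.67. The share of genes more than 2-fold lower was 10.5% at an mt- limit of 1%, 7.71% with genes tested over all UMIs, 26.6% in the UMI window and 40.6% with a pseudocount of 1 CPM. The share more than 2-fold higher was 0.201% at a limit of 0.25%, 0.0273% over all UMIs, 0.622% in the UMI window, 0.902% as means over cells, 0.185% without the top 5% and 1.94% with a pseudocount of 1 CPM. The median over genes ran from -0.60 to -0.20. Malat1 was found in 67.9% and 99.8% of cells without thinning, and at 500 UMIs in 17.0% and 94.9%. Of 1050 recomputed values for 75 named genes, 86 moved and 18 changed sign. Named genes near 0 changed sign: Rps29 to -0.00036 (mt- 0.25%) and -0.011 (1000 genes), Azgp1 to 0.0018 (mt- 1%), 0.00097 (over 2%), 0.0085 (1000 genes), 0.19 (UMI window) and 0.010 (without the 3 cells), Cldn3 to 0.039 and Tmed9 to -0.0050 (mt- 1%), Eef2 to -0.016 (1000 genes) and -0.070 (UMI window), Hspa8 to 0.041 and Spdef to 0.011 (UMI window), and Spink5 to -0.24 (mt- 1%), -0.40 (UMI window), -0.25 (means) and -0.20 (without the top 5%). Wfdc2, without a UMI in the 53 cells, went to 0.24 with 2 more cells at a limit of 2%. Leaving out comparison cells over 5% mt- or with non-luminal markers moved no ratio named here. Depth limits single genes: 1 UMI in the 53 cells is 3.45 CPM, and 573 of the 1753 genes more than 2-fold lower had none there.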
